A study of Homo sapiens with 6 samples.

Results

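NLRC5 and 8 genes of the MHC class I antigen presentation pathway were followed in U2OS cells, a human osteosarcoma line, after depletion of SURF2. The genes were taken by symbol from a table of read counts that held 58051 Ensembl genes: NLRC5 itself, the heavy chains HLA-B, HLA-C, HLA-E and HLA-F, the light chain B2M, the peptide transporter subunits TAP1 and TAP2, and the loading factor TAPBP. All 9 were found, and all 9 were among the 17561 genes tested. Other class I genes were not analysed here. Cells had received an siRNA against SURF2 (siSURF2, 3 libraries) or a scrambled control siRNA (siSCR, 3 libraries), in 2 transfections 49 h apart, and polyA RNA was sequenced from cells taken at 96 h. All 6 libraries came from the same line grown in the same medium with 10% serum, and the labels name no interferon. The number of siRNA sequences used against SURF2 is not given in the labels. The study is concerned with nucleolar stress, in which SURF2 is placed as acting against MDM2, the ubiquitin ligase that degrades p53.

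MHC class I molecules show fragments of the cell's own proteins to cytotoxic T cells and natural killer cells. Proteasomes cut the proteins, the TAP1-TAP2 transporter carries peptides into the endoplasmic reticulum, tapasin (TAPBP) holds empty class I molecules at the transporter, and a heavy chain bound to beta-2-microglobulin (B2M) takes a peptide to the surface. NLRC5 is a protein of the NLR family that enters the nucleus and, without binding DNA itself, activates class I genes through factors seated on a shared promoter module (the RFX complex, CREB or ATF proteins on an X2 box, and NF-Y on a CCAAT or Y box). Interferon-gamma is the classical inducer of NLRC5, and class I promoters also answer to interferon regulatory factors and NF-kB.

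Reference promoter sequence shows where some of those elements lie, in genes that rose and in TAP2, which fell. Sites bound by the RFX complex were not searched for. RefSeq promoter entries (GRCh38.p14, 250 bases before to 50 bases after the annotated start) were at hand for 7 of the 9 genes, NLRC5 and HLA-E being without one. Each was searched on both strands for TGACG (the core of a cAMP response element, as in an X2 box), CCAAT (as in a Y box), the core of an interferon-stimulated response element (GAAA, any 2 bases, GAAA) and a shorter form of it (GAA, any 2 bases, GAAA). Matches are in capitals in the stretches below, printed 5′ to 3′ on the strand of the gene. The full and the shorter core overlap each other in TAP2, and copies of the full core overlap in TAP1, TAPBP and B2M. The HLA-B, HLA-C and B2M stretches hold an interferon-type element, TGACG and CCAAT boxes in that order.
HLA-B, chr6:31357220-31357339, minus strand: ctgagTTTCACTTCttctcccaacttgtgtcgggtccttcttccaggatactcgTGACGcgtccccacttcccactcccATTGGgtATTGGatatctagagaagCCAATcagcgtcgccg
HLA-C, chr6:31272133-31272252, minus strand: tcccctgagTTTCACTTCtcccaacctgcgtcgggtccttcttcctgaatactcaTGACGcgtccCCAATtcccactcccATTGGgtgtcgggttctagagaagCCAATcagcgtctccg
B2M, chr15:44711367-44711476, plus strand: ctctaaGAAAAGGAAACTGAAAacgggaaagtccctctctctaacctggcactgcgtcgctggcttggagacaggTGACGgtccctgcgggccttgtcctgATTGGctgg

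In HLA-B the element TGACG began 106 bases before the annotated start, in HLA-C 105 bases and in B2M 75 bases before it. Over the 250 bases before the start, HLA-B and HLA-C were 89% identical in a global alignment, HLA-B and HLA-F 80.4%, and HLA-B and B2M 49.5%. The interferon-type elements of the other genes are shown next because these genes differed in direction. HLA-F rose, TAP1 rose, TAPBP rose slightly and TAP2 fell.
HLA-F, chr6:29723274-29723303, plus strand: agagTTTCTCTTTCtctcccaacccgtgtc
TAP1, chr6:32853815-32853844, minus strand: ggccgcTTTCGATTTCGCTTTCccctaaat
TAP2, chr6:32838775-32838804, minus strand: ggGAAGCGAAAGCGAAAgctgcccgagccc
TAPBP, chr6:33314079-33314108, minus strand: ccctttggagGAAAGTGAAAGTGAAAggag

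HLA-F had CCAAT boxes 82 and 57 bases before its start but no TGACG in the window. TAP2 had TGACG 35 bases before its start but no CCAAT. TAP1, which rose, had no TGACG in the entry shown above, and its only CCAAT box lay at the upstream end of the window. The entry of its neighbour PSMB9 held TGACG 144 bases before the PSMB9 start, between the starts of both genes but outside the TAP1 window. TAPBP, which rose slightly, had neither TGACG nor CCAAT. Of all 35116 promoter entries, 24.6% held TGACG, 34.6% CCAAT, 3.57% the full interferon core and 7.66% the shorter form. Both TGACG and CCAAT were in 8.69% of entries, and these together with either interferon-type form in 0.726%. These are matches of letters and show no binding. The full core stood both in genes that rose (TAP1, HLA-F, B2M, TAPBP) and in TAP2, which fell. TAP1 has 2 entries, and the other one, at chromosome 6, 32852712 to 32853011, held no match of any motif.

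Counts assigned to genes were 18151554 to 19688089 in siSURF2 libraries and 17123333 to 19573786 in siSCR libraries. SURF2 had 3.74, 3.56 and 3.20 CPM (read counts scaled to library size with TMM factors) in siSURF2 replicates 1, 2 and 3, against 36.2, 35.8 and 32.3 CPM in siSCR replicates 1, 2 and 3. Its log2 fold change, siSURF2 over siSCR as throughout, was -3.31 ± 0.10 (SE, edgeR adjusted p = 3.7e-20). Of 8 osteoblast lineage markers, 5 were tested, while TWIST1 was at 0 and SP7 and COL1A2 had at most 3 counts. COL1A1, SPARC and PRRX1 rose, at log2 fold changes of 0.43, 0.47 and 1.17, ALPL fell by 2.07 and RUNX2 was not called (0.02). The summed level of the list was 1500 to 1760 CPM in siSURF2 and 1190 to 1240 CPM in siSCR. Of 4 epithelial markers, EPCAM rose by 0.99, while CDH1, KRT8 and KRT18 had log2 fold changes of -2.70, -0.50 and -0.69 and fell, with a summed level of 1000 to 1080 CPM in siSURF2 and 1460 to 1590 CPM in siSCR. CDH1 was low in both groups, with 4 to 15 counts in siSURF2 and 54 to 62 in siSCR. It passed the low-count filter only through the siSCR libraries. The part of these marker differences in the class I values was not tested. Of 9 leukocyte markers, cells rich in class I RNA, only ITGAM had more than 12 counts in any library. CD3E and LYZ were at 0 throughout, and the summed leukocyte level was 6.40 to 7.02 CPM in siSURF2 and 7.03 to 7.97 CPM in siSCR. Mitochondrially encoded protein genes held 2.28% to 4.07% of counts in siSURF2, lowest in replicate 2, and 2.46% to 3.06% in siSCR. In raw counts that replicate stood apart from its group. When counts over genes were compared, chi-square divided by its degrees of freedom came to 8.87 against siSURF2 replicate 1 and 10.3 against replicate 3, and to 2.87 between those. Between siSCR libraries it was 2.53 to 4.49. On log2 CPM the difference was slight, with Pearson correlations of 0.9927 and 0.9922 for siSURF2 replicate 2 and 0.9934 between replicates 1 and 3. Without siSURF2 replicate 2, 7 of the 9 genes were called, at log2 fold changes of 0.45 to 1.27 for the 6 that rose and -0.40 for TAP2, and TAPBP was not. Nothing in the labels ties the replicates to separate cultures, and the p-values therefore rest on library-to-library spread that may be technical. In bulk RNA, more cells with a transcript and more transcript per cell cannot be told apart.

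By edgeR's quasi-likelihood F-test, with Benjamini-Hochberg adjustment over every gene tested and a threshold of 0.05, 7 of the 9 genes rose, 1 fell and 1 was not called. Over all tested genes, 52% were called, 25.8% as higher and 26.2% as lower. The median log2 fold change was 0.47 over the 9 genes and 0.00 over all tested genes. NLRC5, HLA-B, HLA-C, HLA-F, B2M and TAP1 were higher in every siSURF2 library than in any siSCR library, TAP2 was lower in every one, and the groups overlapped for HLA-E and TAPBP. Among all tested genes the groups were apart with siSURF2 above in 28.6% and with siSURF2 below in 28.6%. With library sizes set by the ERCC spike-in RNAs in place of TMM factors, NLRC5 and HLA-F alone were called, with SEs of 0.26 to 0.27 for HLA-B, HLA-C, B2M, TAP1, TAP2 and TAPBP. Of the related genes named below, PSMB6, NFYA, PRDM1, MR1, RAET1E, HLA-DQB1, NOD2, NLRP10, NLRP3 and the 5 genes most like NLRC5 kept their calls under that scaling, and no other did. The fold changes of those that lost their calls kept their direction, for example -0.72 ± 0.26 for RFX5, 0.78 ± 0.29 for TAPBPL, 0.66 ± 0.27 for WWP2 and -0.77 ± 0.35 for FCGRT, with larger SEs than under TMM scaling.

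**Figure D1:**
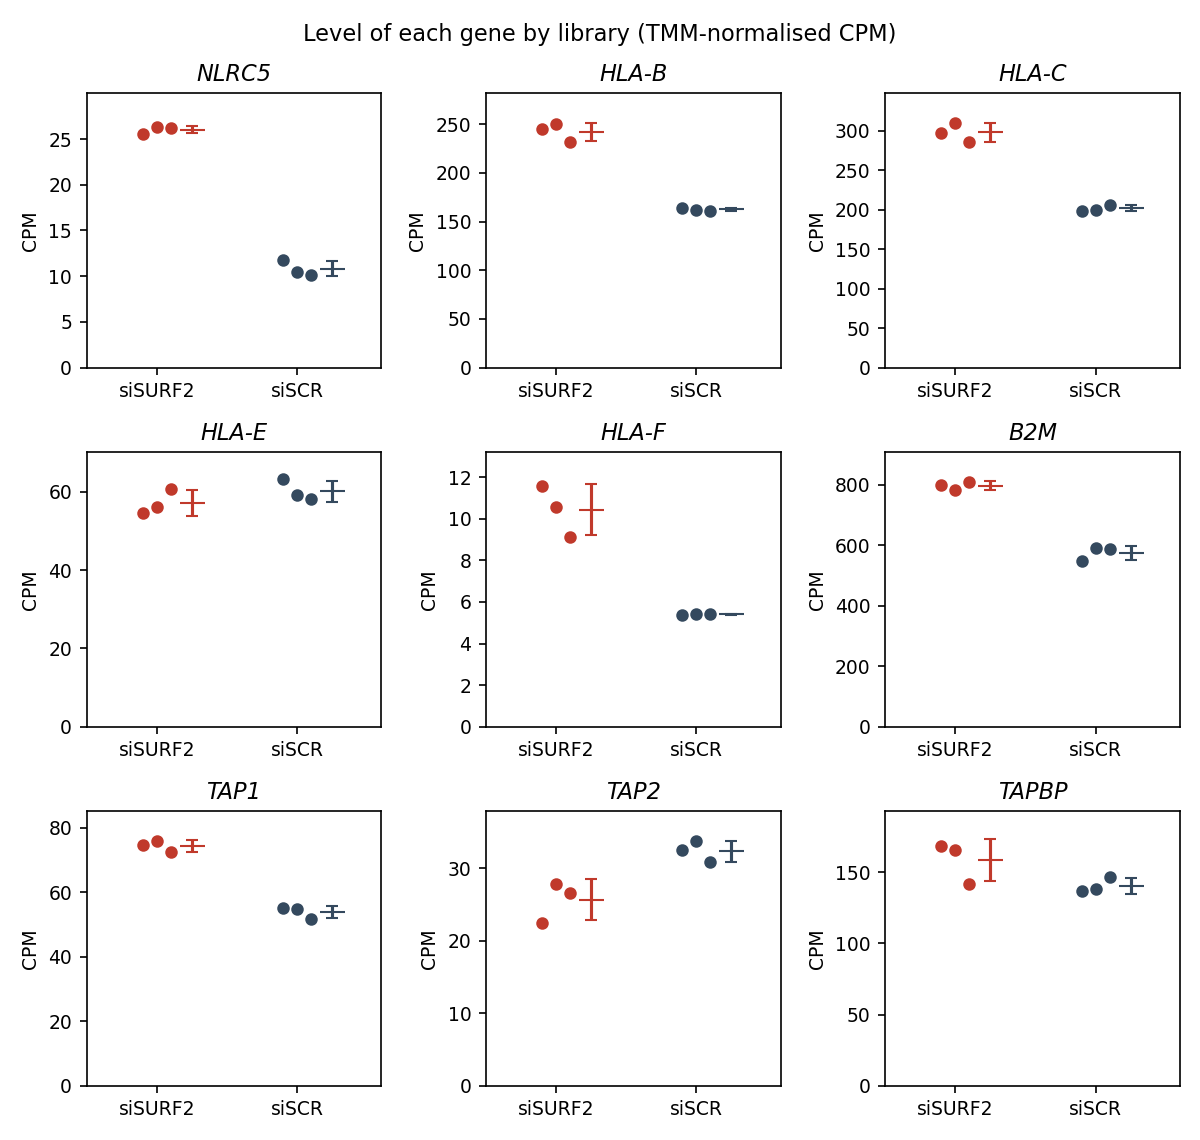
Level of NLRC5 and the 8 class I pathway genes in each library, in TMM-normalised CPM on linear axes from 0. Points are libraries (siSURF2 red, siSCR dark blue), bars are mean and SD over n = 3. The groups are apart for 7 genes and overlap for HLA-E and TAPBP.

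The transactivator had the largest change of the set. NLRC5 (ENSG00000140853), on chromosome 16 at 56989485 to 57083531 (GRCh38, GENCODE release 29), had 25.6, 26.3 and 26.2 CPM in siSURF2 replicates 1, 2 and 3, against 11.7, 10.5 and 10.2 CPM in siSCR replicates 1, 2 and 3. All siSURF2 libraries lay at more than double the level of any siSCR library. The ratio of means was 2.41, the log2 fold change 1.27 ± 0.09 (SE) and the adjusted p 7.7e-13. Of all tested genes, 97.4% had a lower log2 fold change. The raw counts behind these values were 465 to 525 in siSURF2 and 196 to 198 in siSCR libraries. NLRC5 shared no exonic base with another gene of the annotation.

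The classical heavy chains HLA-B and HLA-C, which present peptides to cytotoxic T cells, rose by almost the same factor. HLA-B (ENSG00000234745) had 244.8, 249.9 and 231.8 CPM in siSURF2 replicates 1, 2 and 3, against 164.4, 162.2 and 161.3 CPM in siSCR replicates 1, 2 and 3, a log2 fold change of 0.57 ± 0.05 (adjusted p = 7.7e-11). HLA-C (ENSG00000204525) had 297.4, 309.7 and 285.4 CPM in siSURF2, against 198.8, 199.6 and 205.8 CPM in siSCR, a log2 fold change of 0.56 ± 0.05 (adjusted p = 1.0e-10). Both genes were thus higher in every siSURF2 library, by 48.9% and 47.7% of the siSCR mean. Within a library the ratio of HLA-C to HLA-B counts was 1.22, 1.24 and 1.23 in siSURF2 and 1.21, 1.23 and 1.28 in siSCR. The groups overlapped in that ratio, with a log2 difference of -0.01 ± 0.02 (SE, two-sided exact permutation p = 0.90). HLA-B and HLA-C share 35 exonic bases on the same strand. HLA-B also shares 542 exonic bases with AL671883.2 on the other strand, which had 3 to 10 counts in siSURF2 and 6 to 16 in siSCR.

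Of the non-classical heavy chains, HLA-F rose and HLA-E was not called. HLA-F (ENSG00000204642), which is bound by receptors of natural killer cells, had 11.6, 10.6 and 9.15 CPM in siSURF2 replicates 1, 2 and 3, against 5.36, 5.40 and 5.44 CPM in siSCR replicates 1, 2 and 3. Its log2 fold change was 0.95 ± 0.13 (adjusted p = 3.7e-07), the second highest of the set. On the other strand HLA-F shares 701 exonic bases with AL645939.1, which had at most 2 counts in any library, and 257 with RPL23AP1, which had 0. HLA-F and HLA-F-AS1 share 535 exonic bases on opposite strands, and whether counting used strand is not known here. HLA-F-AS1 had 56, 58 and 61 counts in siSURF2 and 17, 33 and 23 counts in siSCR, against 183 to 211 and 90 to 106 counts of HLA-F, so reads of the pair cannot be assigned with certainty.

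HLA-E (ENSG00000204592), which displays signal peptides of other class I chains to an inhibitory receptor of natural killer cells, did not pass the threshold. It had 54.5, 56.2 and 60.8 CPM in siSURF2 replicates 1, 2 and 3, against 63.2, 59.2 and 58.1 CPM in siSCR replicates 1, 2 and 3. The groups overlapped, and the log2 fold change was -0.07 ± 0.06 (adjusted p = 0.34) with a 95% interval of -0.19 to 0.05, which lies below the estimates for HLA-B, HLA-C and HLA-F. The ratio of HLA-B to HLA-E counts was 4.49, 4.45 and 3.81 in siSURF2 and 2.60, 2.74 and 2.78 in siSCR. All siSURF2 libraries had the higher ratio, a log2 difference of 0.65 ± 0.08 (two-sided exact permutation p = 0.10, the smallest that 3 against 3 libraries can give). The levels of HLA-B and HLA-E given above already set the groups apart in this ratio, so that p adds nothing to them. Per length of exons, HLA-E made up 8.33%, 8.33% and 9.63% of the summed level of the 4 heavy chains in siSURF2, against 13.6%, 12.9% and 12.5% in siSCR.

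B2M, the invariant light chain that pairs with class I heavy chains, rose, as HLA-B, HLA-C and HLA-F did. B2M (ENSG00000166710) had 798.9, 782.4 and 810.6 CPM in siSURF2 replicates 1, 2 and 3, against 547.9, 589.7 and 588.3 CPM in siSCR replicates 1, 2 and 3. The groups were apart, with a log2 fold change of 0.47 ± 0.05 (adjusted p = 3.3e-09). The ratio of B2M to HLA-B counts was 3.26, 3.13 and 3.50 in siSURF2 and 3.33, 3.64 and 3.65 in siSCR, overlapping between groups (log2 difference -0.10 ± 0.06, exact permutation p = 0.20).

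The subunits of the peptide transporter, which work as a heterodimer, went in opposite directions. TAP1 (ENSG00000168394) had 74.9, 75.9 and 72.5 CPM in siSURF2 replicates 1, 2 and 3, against 55.1, 54.8 and 51.7 CPM in siSCR replicates 1, 2 and 3, a log2 fold change of 0.47 ± 0.06 (adjusted p = 6.7e-08). TAP2 (ENSG00000204267) had 22.4, 27.8 and 26.6 CPM in siSURF2, against 32.6, 33.7 and 30.8 CPM in siSCR, a log2 fold change of -0.33 ± 0.08 (adjusted p = 6.7e-04). In every siSURF2 library TAP1 was above and TAP2 below all siSCR libraries. The ratio of TAP1 to TAP2 counts, which no scaling factor touches, was 3.34, 2.73 and 2.73 in siSURF2 and 1.69, 1.63 and 1.68 in siSCR. That is a log2 difference of 0.81 ± 0.10. With TAP1 above and TAP2 below in every siSURF2 library, the two-sided exact permutation p had to be 0.10, the smallest possible. That p therefore adds nothing to the levels. TAP2 shares 2064 exonic bases, 32.3% of its exons, with the gene AL669918.1 on the same strand, which had 4 to 9 counts in siSURF2 and 6 to 10 in siSCR. How such reads were counted is not known here. TAP1 shares 456 exonic bases with PSMB8-AS1 on the other strand, which had 31 to 54 counts in siSURF2 and 43 to 49 in siSCR.

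**Figure D2:**
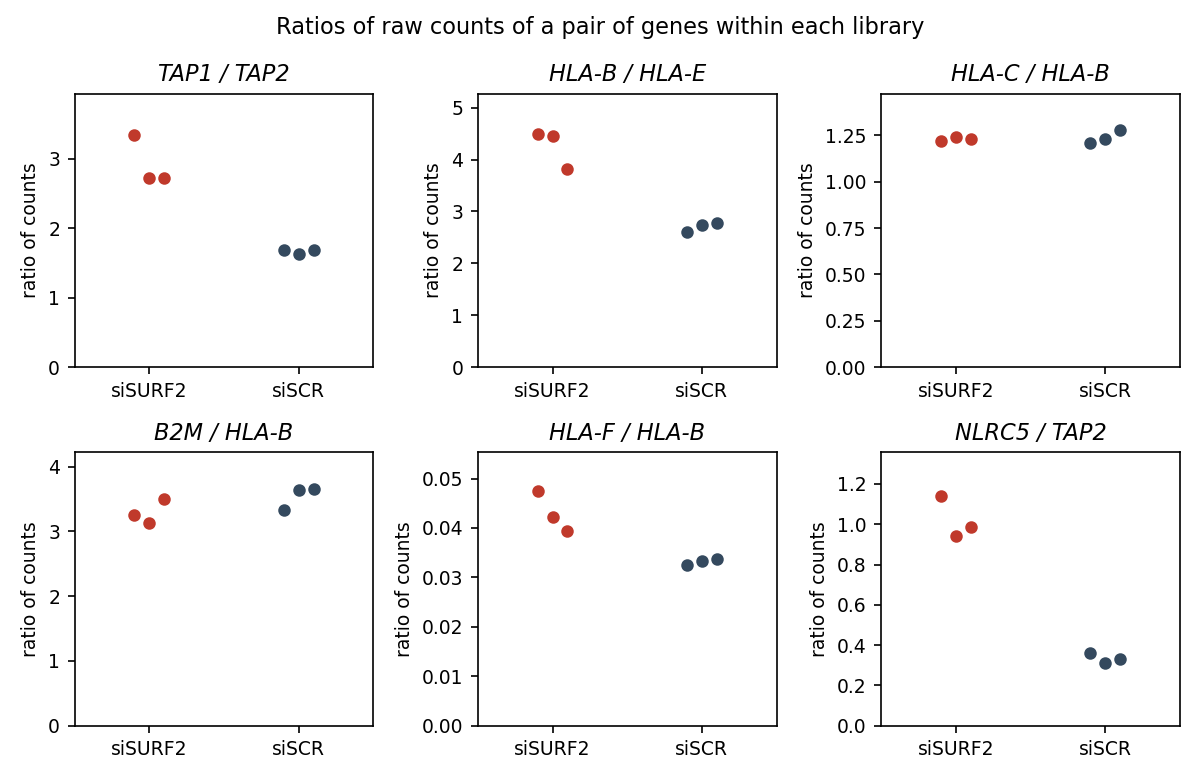
Ratios of the raw counts of a pair of genes within each library, on linear axes from 0, with 3 libraries a group (siSURF2 red, siSCR dark blue). TAP1 to TAP2, HLA-B to HLA-E, HLA-F to HLA-B and NLRC5 to TAP2 were higher in every siSURF2 library, while HLA-C to HLA-B and B2M to HLA-B overlapped. For the ratios to TAP2 this follows from the levels of the genes, which were apart in opposite directions. For HLA-B to HLA-E and HLA-F to HLA-B it also follows from the levels of the genes in each group.

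TAPBP (ENSG00000231925), which encodes tapasin, had the smallest called change. Its level was 168.4, 165.8 and 141.6 CPM in siSURF2 replicates 1, 2 and 3, against 136.7, 138.1 and 147.0 CPM in siSCR replicates 1, 2 and 3. Replicate 3 of siSURF2 lay below replicate 3 of siSCR, so the groups overlapped, and the log2 fold change was 0.17 ± 0.06 (adjusted p = 0.015). The adjusted p was 0.075 without siSURF2 replicate 1, 0.077 without siSURF2 replicate 2 and 0.072 without siSCR replicate 1, and 3.95e-04 without siSURF2 replicate 3, where the log2 fold change was 0.25. Over all 16 alternatives it ran from 3.95e-04 to 0.89.

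Relative to length, the light chain and the classical heavy chains were the most abundant in both groups. Scaled to CPM per kb of exons, B2M averaged 131 ± 2.0 in siSURF2 and 94.6 ± 3.93 in siSCR (SD, n = 3 each), HLA-C 119 ± 5.0 and 80.3 ± 1.54, and HLA-B 79.4 ± 3.04 and 53.3 ± 0.513 in the same order. TAPBP followed with 31.4 ± 2.93 in siSURF2 and 27.8 ± 1.14 in siSCR, then HLA-E with 19.2 ± 1.08 and 20.2 ± 0.889, and TAP1 with 15.5 ± 0.361 and 11.2 ± 0.379. TAP2 averaged 4.01 ± 0.444 in siSURF2 and 5.06 ± 0.226 in siSCR, HLA-F 2.41 ± 0.281 and 1.24 ± 0.01, and NLRC5 2.10 ± 0.0346 and 0.871 ± 0.0661. No neighbours in this order overlapped between libraries of the same group except HLA-F and NLRC5 in siSURF2, at 2.11 to 2.67 and 2.06 to 2.12 CPM per kb. Exon lengths are those of all annotated transcripts joined, so a gene with long rare transcripts, such as B2M with 6079 bases, is scaled down. Heavy chain genes are highly polymorphic, and a reference genome carries 1 allele of each, so the level of a heavy chain also depends on how well the alleles of the line align. That was not tested. In the reference transcripts at most 0.491% of the 100-base stretches of any of the 4 heavy chains also occurred in another gene.

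**Figure D3:**
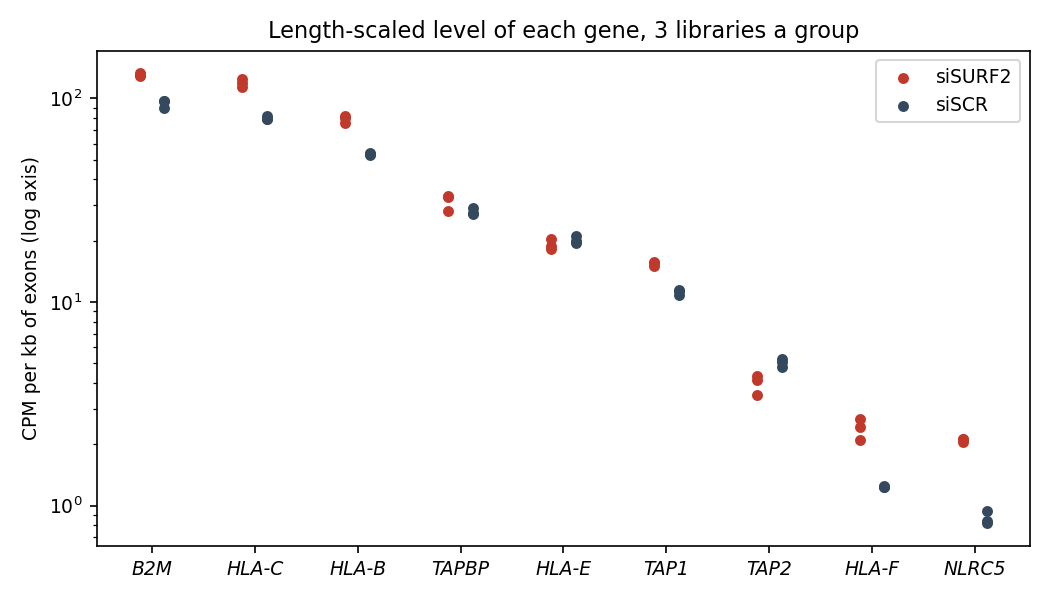
Level of each gene per kb of exons, in CPM per kb on a log axis, ordered by the siSURF2 mean, with 3 libraries a group (siSURF2 red, siSCR dark blue). B2M, HLA-C and HLA-B lead in both groups, and NLRC5 is lowest in both.

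Of the 9 genes, 7 lie on chromosome 6 in the MHC region, B2M on chromosome 15 and NLRC5 on chromosome 16. Their neighbours were split between directions. Between the start of HLA-F and the end of TAPBP (chromosome 6, 29722775 to 33314387), 112 other genes were tested, of which 29 rose (25.9%) and 29 fell (25.9%), with a median log2 fold change of -0.04. These shares are near those over all tested genes.

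**Figure D4:**
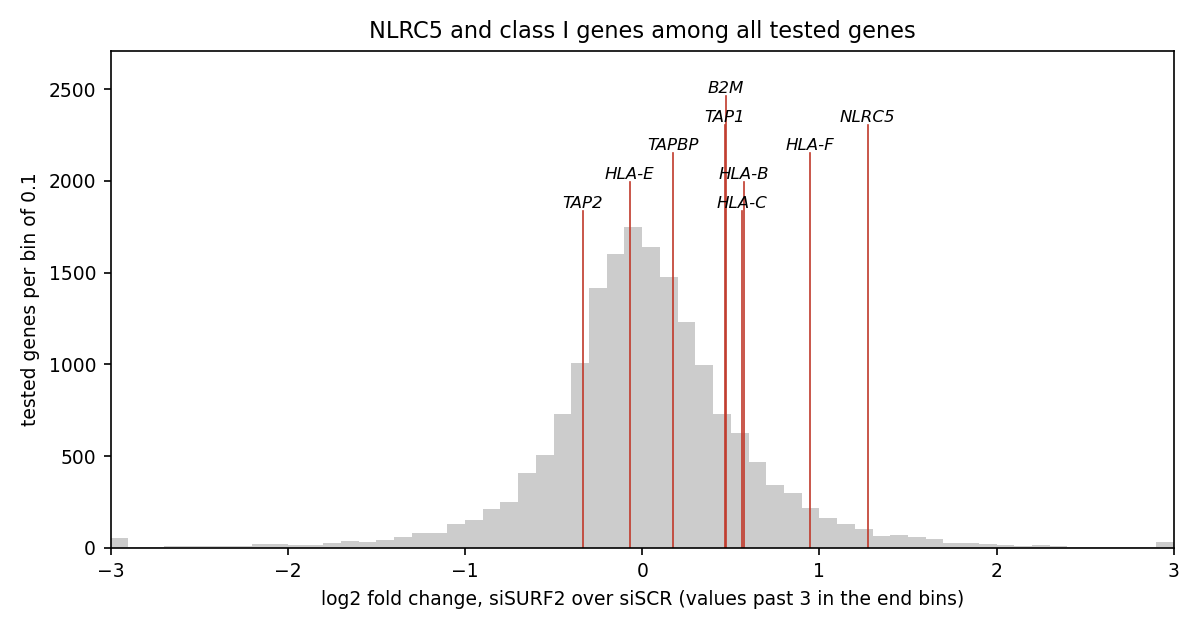
Histogram of the log2 fold change, siSURF2 over siSCR, of all 17561 tested genes in bins of 0.1, with NLRC5 and the 8 class I pathway genes marked by vertical lines. NLRC5 (1.27) and HLA-F (0.95) stand in the upper tail, HLA-E (-0.07) near the centre and TAP2 (-0.33) below it.

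Other genes of peptide loading and trimming were split. Of 8 tested, 4 rose and 4 fell, with a median of 0.00. Over all tested genes 25.8% were called higher and 26.2% lower. Counts from this and the later lists are to be read beside those shares. TAPBPL, which encodes the peptide editor TAPBPR, rose to 17.7 ± 0.384 CPM in siSURF2, against 9.80 ± 1.96 CPM in siSCR (log2 fold change 0.85 ± 0.11, adjusted p = 3.0e-07). UGGT1, the glucosyltransferase that returns unfinished glycoproteins to chaperones, rose by 0.24 ± 0.06. CALR, the chaperone calreticulin of the loading complex, fell to 893.3 ± 22.0 CPM in siSURF2, against 1126 ± 24.1 CPM in siSCR (-0.33 ± 0.05, adjusted p = 9.2e-07). LNPEP, an aminopeptidase, fell by 0.23 ± 0.07 (adjusted p = 0.011 by edgeR). LNPEP lost its call without siSURF2 replicate 2 (0.070), siSCR replicate 2 (0.052) or siSCR replicate 3 (0.052), and the list had 2 to 4 genes called lower when 1 library was left out.

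The immunoproteasome, the interferon-inducible form that favours class I peptides, did not move as a block. Among 5 genes of it and its activator, 2 were called higher, 2 lower and 1 was not called. The shares over all tested genes were 25.8% higher and 26.2% lower. PSMB9, a catalytic subunit, rose by 0.31 ± 0.07, to 40.4 ± 3.83 CPM in siSURF2 against 32.5 ± 1.22 CPM in siSCR (adjusted p = 5.7e-04). PSMB9 and TAP1 are transcribed away from each other from starts 488 bases apart in RefSeq, and the ratio of TAP1 to PSMB9 counts was 1.77, 1.77 and 2.01 in siSURF2 and 1.70, 1.62 and 1.65 in siSCR. PSMB10, another catalytic subunit, fell by 0.48 ± 0.10, and PSME2, a subunit of the activator, fell by 0.42 ± 0.05. Its partner PSME1 was at 0.13 ± 0.05 (adjusted p = 0.035). PSME1 lost its call without siSURF2 replicate 1 (0.069), siSURF2 replicate 2 (0.15), siSCR replicate 1 (0.14) or siSCR replicate 2 (0.082), which leaves 1 gene of the list called higher. Of the 5 genes on the constitutive side, 4 fell and none rose, with PSMB6, the catalytic subunit that PSMB9 replaces, at -0.91 ± 0.06 and PSME3, a proteasome activator of the nucleus, at -0.31 ± 0.05.

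The factors that seat NLRC5 on class I promoters included a pair of strongly lower DNA-binding subunits. Of 8 tested, 4 fell, 2 rose and 2 did not pass, where 26.2% of all tested genes fell and 25.8% rose. NFYA, the DNA-binding subunit of NF-Y, fell to 28.0 ± 0.959 CPM in siSURF2, against 56.8 ± 1.74 CPM in siSCR (-1.02 ± 0.06, adjusted p = 1.1e-13). RFX5, the DNA-binding subunit of the RFX complex, fell to 64.1 ± 2.77 CPM in siSURF2, against 102.9 ± 1.13 CPM in siSCR (-0.68 ± 0.05, adjusted p = 1.9e-11). NFYB, another NF-Y subunit, rose by 0.51 ± 0.08. RFXAP, of the RFX complex, was at 0.34 ± 0.14 (adjusted p = 0.044), and over all alternatives its adjusted p ran from 0.024 to 0.69, under the threshold in 7 of 16. It lost its call without any 1 library except siSCR replicate 1, which leaves 1 of the 8 called higher.

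Genes that carry the interferon and NF-kB signals toward NLRC5 and class I mostly did not pass. Of 16 tested, 1 rose and 3 fell, while 12 were not called, where 25.8% of all tested genes rose and 26.2% fell. The number called higher was 2 with upper-quartile factors, no factors, the filter of 1 CPM or a non-robust fit. It was also 2 without siSURF2 replicate 1. With library sizes from ERCC totals 0 were called higher and 0 lower. JAK1, the kinase shared by interferon receptors, rose by 0.23 ± 0.05. NFKB1, an NF-kB subunit, fell by 0.26 ± 0.05. IRF1, an interferon regulatory factor and activator of class I genes, had 25.1 ± 0.249 CPM in siSURF2 and 25.6 ± 0.493 CPM in siSCR (-0.03 ± 0.07, adjusted p = 0.74). IRF1 was named here after its value was seen. None of 8 interferon genes was tested. IFNG, IFNB1, IFNA1, IFNL2, IFNL3 and IFNK were at 0 in all 6 libraries, where 3 counts correspond to 0.150 to 0.165 CPM in siSURF2 and 0.154 to 0.179 CPM in siSCR. IFNL1 had at most 1 count and IFNE at most 7.

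**Figure D5:**
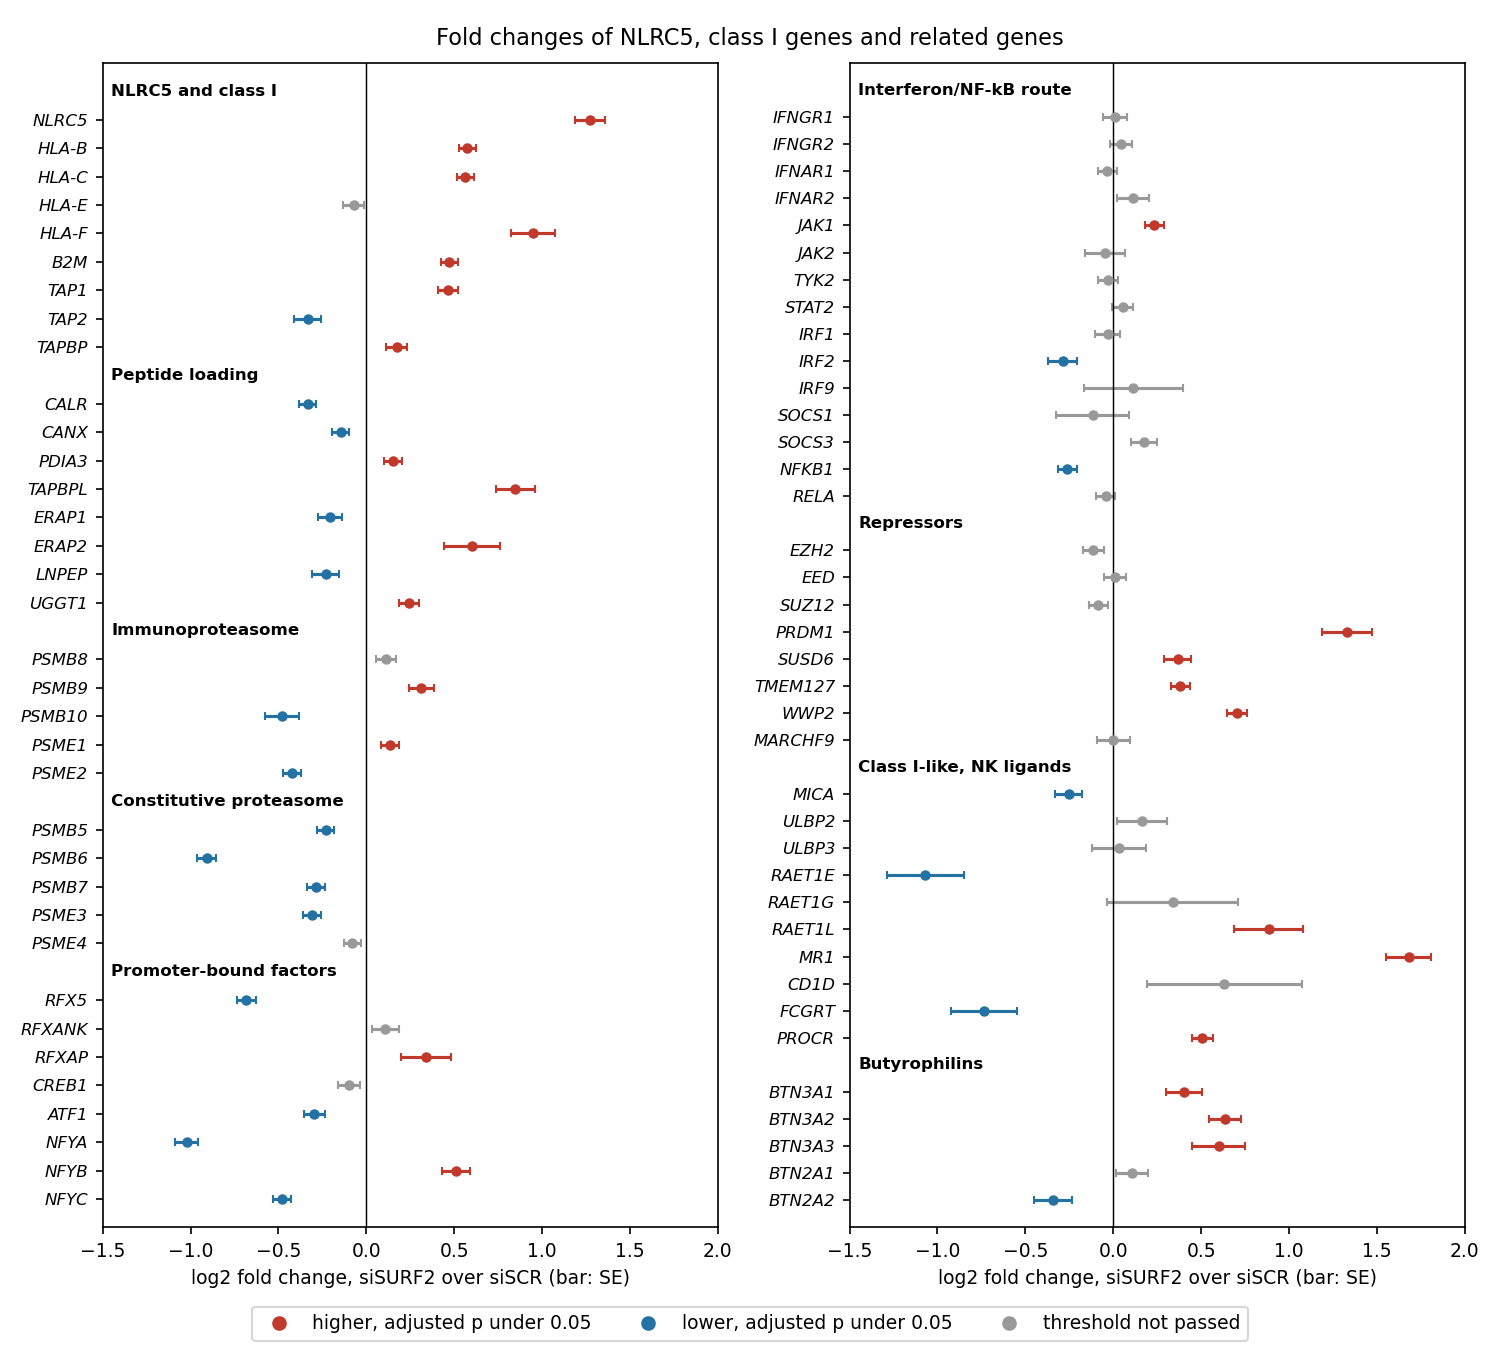
Log2 fold change, siSURF2 over siSCR, with its SE for NLRC5, the class I pathway genes and the other genes of 8 related lists. Red points were called higher and blue points lower at an adjusted p under 0.05, and grey points did not pass. Most promoter-bound factors that passed lie left of 0, and most genes of the interferon route are grey.

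Among 8 genes listed as repressors of class I, 4 rose, none fell and 4 did not pass. Over all tested genes 25.8% rose and 26.2% fell. EZH2, EED and SUZ12 encode the polycomb complex that silences class I genes in some tumours. Their log2 fold changes were -0.11, 0.01 and -0.09, none of them called. PRDM1, a transcriptional repressor, rose to 10.8 ± 1.45 CPM in siSURF2, against 4.26 ± 0.781 CPM in siSCR (1.33 ± 0.14, adjusted p = 9.1e-09). WWP2 rose by 0.71 ± 0.06, and SUSD6 and TMEM127 by 0.37 ± 0.08 and 0.38 ± 0.05. In human cells these 3 genes encode a ubiquitin ligase and a pair of membrane proteins that together lower surface class I. The polycomb genes, SUSD6 and TMEM127 were named for their roles after their values were seen.

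Of 10 tested class I-like genes and ligands of natural killer receptors, 3 rose, 3 fell and 4 did not pass. These counts are near the shares over all tested genes, of which 25.8% rose and 26.2% fell. MR1, which shows vitamin B metabolites to mucosal-associated invariant T cells, rose to 12.1 ± 0.995 CPM in siSURF2, against 3.78 ± 0.254 CPM in siSCR. Its log2 fold change was 1.68 ± 0.13 (adjusted p = 1.2e-11 by edgeR). PROCR, an endothelial protein C receptor of class I-like fold, rose by 0.51 ± 0.06. RAET1E, a stress ligand, and FCGRT, the neonatal Fc receptor chain that pairs with B2M, fell by 1.07 ± 0.22 and by 0.74 ± 0.19.

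The BTN3A butyrophilins, which phosphoantigen-sensing gamma-delta T cells depend on, rose together. BTN3A1, BTN3A2 and BTN3A3 had log2 fold changes of 0.40 ± 0.10, 0.64 ± 0.09 and 0.60 ± 0.15, with adjusted p of 0.0016, 2.6e-06 and 0.0014. BTN3A2 had 36.2 ± 2.78 CPM in siSURF2 and 23.2 ± 3.71 CPM in siSCR. Of the 5 butyrophilins tested, 3 rose, 1 fell and 1 did not pass, where 25.8% of all tested genes rose and 26.2% fell. BTN2A1 did not pass. BTN2A2 fell by 0.34 ± 0.11, with an adjusted p of 0.066 without siSURF2 replicate 1 and 0.0503 without siSCR replicate 3, neither of them a call. The BTN3A genes are close paralogs, so their counts are uncertain.

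Class II genes stayed near the limit of detection. Of 13 in the list, 10 were not tested, and HLA-DRA and HLA-DQA1 were at 0 in all 6 libraries. CIITA, the class II counterpart of NLRC5, had 12 to 17 counts in siSURF2 and 16 to 21 in siSCR (-0.38 ± 0.34, adjusted p = 0.36). HLA-DQB1 was called higher, with 49, 39 and 38 counts in siSURF2 replicates 1, 2 and 3, against 7, 19 and 13 counts in siSCR replicates 1, 2 and 3 (1.62 ± 0.31, adjusted p = 6.7e-05). It is polymorphic and has close paralogs, so this value is uncertain.

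Relatives of NLRC5 in the NLR family were called in both directions. Of 10 tested, 2 rose, 4 fell and 4 did not pass, with a median of -0.25. The shares over all tested genes were 25.8% higher and 26.2% lower. NLRX1, a mitochondrial member, rose by 0.27 ± 0.08. The other gene called higher was NOD2, a sensor of bacterial wall fragments, at 11 to 16 counts in siSURF2 and 2 to 6 in siSCR. NOD2 passed the low-count filter only through the siSURF2 libraries, and with a filter of 1 CPM in 3 libraries it was not tested and 1 gene of the list was called higher. NLRP10 fell by 4.40 ± 0.29, with 4 to 6 counts in siSURF2 and 87 to 126 in siSCR, through which alone it passed the filter, and NLRP3, the inflammasome sensor, fell by 2.15 ± 0.26.

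By its values over the 6 libraries, NLRC5 was most like MGST1, GDF15, GALNS, IL17RD and PTPN22, with Pearson correlations of log2 CPM of 0.9992 to 0.9995. MGST1, a microsomal glutathione transferase, had 65.7 ± 1.04 CPM in siSURF2 and 35.6 ± 1.46 CPM in siSCR. GDF15, a secreted stress cytokine and known p53 target, had 19.6 ± 0.568 CPM in siSURF2 and 4.33 ± 0.736 CPM in siSCR. PTPN22 had 73 to 93 counts in siSURF2 and 3 to 4 in siSCR, near the floor. It passed the low-count filter only through the siSURF2 libraries. Of 12144 protein-coding genes compared, 286 had a correlation of at least 0.99. The libraries form 2 groups, so such a value mostly restates a difference between groups with little spread within them.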

How the data were processed

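PolyA RNA was sequenced from 6 U2OS libraries, 3 a group. The authors deposited raw read counts per Ensembl gene in 1 table, with 92 ERCC spike-in rows, not normalised. GRCh38, fastp 0.23.1 and STAR 2.5.2b are named in the submitters' processing notes. Which program counted reads, on which annotation and with what strand option, is not known here. Columns were matched to samples by name.

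Symbols came from a gene name table (56948 identifiers) and GENCODE release 29 (499 more). Spike-ins stayed out of library sizes and tests. Counts were filtered with filterByExpr (minimum count 10, minimum total 15), TMM-normalised and tested with edgeR 4.0.16 in R 4.3.3 (quasi-likelihood F-test, robust, group as the only term), with Benjamini-Hochberg adjustment over all tested genes and a threshold of 0.05. Each SE was obtained from the unshrunk fold change and the F statistic, as their ratio after taking the root of F. The program was tested on simulated data. Ratios of counts were compared with two-sided exact permutation tests, 7 pairs in all, without adjustment.

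The 9 genes, the 11 lists of related genes and the choice of tests were made with earlier results of these data known. Genes named from a list are the 2 best called in each direction by adjusted p, or the best 1 where none was called. Those named outside that rule are marked or are given as members of a described group. A gene of the interferon list is counted but not reported here. DESeq2 1.42.0, limma-voom (limma 3.58.1), other scalings and filters, a replicate block and leaving out each library were the 16 alternatives.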

Additional observations from a re-analysis of the deposited data

How the results depend on the processing

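Directions of the 9 genes held under all 16 alternatives. Calls depended on scaling by ERCC totals. With it 1629 genes were called (803 higher), against 9131 with TMM factors, and of the 9 genes 2 were called, 2 higher and 0 lower. The log2 fold changes were then 0.53 for HLA-B (adjusted p = 0.23), 0.51 for HLA-C (0.25), 0.43 for B2M (0.38), 0.43 for TAP1 (0.40), -0.37 for TAP2 (0.52) and 0.11 for TAPBP (0.89). Spike-ins held 1.27% to 1.72% of counts in siSURF2 and 1.12% to 1.72% in siSCR libraries, a spread within groups that enters every gene's error under that scaling. Without 1 library, TAPBP ran from 0.14 to 0.25, and was not called without siSURF2 replicate 1, siSURF2 replicate 2 or siSCR replicate 1. With the replicate number as a block, 9028 genes and 8 of the 9 were called. Deviations from the group mean had correlations of 0.004, -0.09 and -0.04 between same-numbered libraries. Between differently numbered libraries they ran from -0.075 to 0.118. Such values cannot show whether libraries of the same number shared a day or a culture, and the labels do not say. Depth limits class II and interferon genes, since 3 counts correspond to 0.150 to 0.179 CPM.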
